A study of Mus musculus with 60 samples.

Results

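The Myc family genes described here are 7 genes, Mycn, Myc, Mycl, Max, Mxd3, Mnt and Mga, taken by their Ensembl identifiers from 55487 genes counted in 60 RNA-seq libraries. They were chosen by measured values: the list was drawn up with the levels and fold changes of these genes over all 20 groups in view, and it names no contrast and no threshold. Their values, standard errors and calls are therefore given as a description. The calls are no independent test of these genes, and nothing is supported with them. The other gene lists used below were likewise chosen with earlier results of these data known. Their counts and p-values are therefore also a description and no independent support. All cells were mouse embryonic stem cells (mESCs) of the E14JU line in which POLE4, an accessory subunit of the leading-strand DNA polymerase epsilon that hands parental histones to the leading strand, carries a dTAG degron. DMSO left the protein in place (Ctrl) and the dTAG degrader removed it (dPOLE4). The same 2 treatments were given to a POLE4-dTAG line that also carries MCM2-2A, a mutation of the histone-binding part of MCM2, which passes parental histones to the lagging strand (Ctrl MCM2-2A and dPOLE4 MCM2-2A). Each of the 4 conditions was sampled after 24 h of DMSO or dTAG in serum with LIF (T0), and then after 12 h, 24 h and 60 h of retinoic acid (RA) without LIF (T12, T24, T60). A separate experiment sampled the 4 conditions after 96 h of DMSO or dTAG without RA. Every group had 3 libraries. Each background is 1 clone, so that the MCM2-2A mutation and the clone that carries it cannot be told apart, and the addition of RA cannot be told apart from the loss of LIF. All groups carry the degron, and none is an untagged parent.

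MYC, N-MYC (from Mycn) and L-MYC (from Mycl) are basic helix-loop-helix leucine zipper proteins that bind DNA only as partners of MAX and activate genes of ribosome biogenesis, nucleotide and polyamine synthesis and cell growth. The MXD proteins and MNT compete for MAX at the same E-box sites and repress, and MGA brings MAX into a variant Polycomb complex, PRC1.6, that silences germline genes in mESCs. In mESCs MYC and N-MYC act redundantly downstream of LIF, and both are known to be switched down as cells leave the pluripotent state.

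Mycn (ENSMUSG00000037169) lies on the minus strand of GRCm38 chromosome 12 at 12936093-12941914 and Max (ENSMUSG00000059436) on the same strand of that chromosome at 76937269-76962201. Myc (ENSMUSG00000022346) lies on the plus strand of chromosome 15 at 61985391-61990374 and Mycl (ENSMUSG00000028654) on the plus strand of chromosome 4 at 122995652-123002485. Mxd3 (ENSMUSG00000021485) lies on the minus strand of chromosome 13 at 55325168-55329823, where it overlaps Prelid1 on the other strand. Mnt (ENSMUSG00000000282) lies on the plus strand of chromosome 11 at 74830920-74845725 and Mga (ENSMUSG00000033943) on the plus strand of chromosome 2 at 119897228-119969581. The Max locus overlaps the annotated gene Gm47218 on the same strand, and reads shared by these genes could have been split in counting.

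RefSeq promoter windows (250 bases before to 50 after a start, GRCm38.p6) matched 6 of the 7 genes, all but Myc. The canonical E-box CACGTG, which reads the same on both strands, occurred in 2 of these 6 windows, those of Max and Mnt, and in 7.15% of all 32851 windows. Among the other genes of the network it also occurred in the windows of Mxd4, a gene of the MXD repressor group, and Mlx and in 1 window of Mlxipl, and Mxd4 is shown because it rose most of these genes under RA. The 100 bases around each match are shown, 5′ to 3′ on the strand of the gene and with the E-box in capitals, because these are the windows of a partner and of repressors of MYC that hold the sequence the network binds. The match begins 3 bases before the RefSeq start of Max (chr12:76962246-76962345, minus strand), 123 bases before that of Mnt (chr11:74830774-74830873, plus strand) and 219 bases before that of Mxd4 (chr5:34187861-34187960, minus strand).
Max: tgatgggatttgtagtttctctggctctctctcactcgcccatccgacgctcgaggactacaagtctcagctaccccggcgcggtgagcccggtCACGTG
Mnt: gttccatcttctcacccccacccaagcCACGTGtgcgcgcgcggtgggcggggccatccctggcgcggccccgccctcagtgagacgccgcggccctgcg
Mxd4: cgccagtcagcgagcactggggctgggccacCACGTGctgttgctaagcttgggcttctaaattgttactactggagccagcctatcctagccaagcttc
A match is a string of letters and no evidence of binding, and the windows of Mycn, Mycl, Mxd3 and Mga did not hold it.

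The 48 libraries of the RA experiment held between 10461077 and 46609151 counts and the 12 libraries of the 96 h experiment between 7126100 and 23598266. Values are CPM, counts relative to the TMM-scaled library size, computed within each experiment, so that levels were compared only within an experiment. All 7 genes passed the filter on low counts in all 27 comparisons. Mycn was covered by 152 to 6613 counts per library and Mxd3, the most thinly covered, by 37 to 318. A feature was called when its adjusted p in edgeR's quasi-likelihood test was below 0.01 and its log2 fold change exceeded 0.58 in size. The labels number the libraries of a group 1 to 3 and do not say that they came from separate cultures, so that p-values measure the spread between these libraries. In bulk RNA, fewer cells of a kind and less RNA per cell cannot be told apart. The 6 embryonic stem cell markers checked (Pou5f1, Nanog, Sox2, Zfp42, Dppa3, Klf4) summed to 2210 to 2300 CPM in Ctrl at T0 and to 123 to 151 CPM at T60, while 6 RA response markers rose from 7.03 to 8.30 CPM to 586 to 795 CPM in sum. Markers of other cells were not at 0 in Ctrl at T60: 6 fibroblast markers summed to 435 to 570 CPM there against 53.9 to 61.4 CPM at T0, 5 primitive endoderm markers to 281 to 346 CPM against 12.4 to 22.7 CPM, 5 trophoblast markers to 868 to 1040 CPM against 168 to 232 CPM and 5 neural progenitor markers to 301 to 329 CPM against 216 to 224 CPM. The part of these other cells in the RA values was not tested.

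Before RA, Mycn had the highest level per length of the 7 genes in Ctrl. In Ctrl at T0, Mycn stood at 62.0 ± 4.11 CPM per kb of exon (SD, n = 3) and Myc at 30.3 ± 1.08 CPM per kb. Their obligate partner Max followed at 22.6 ± 0.901, Mga at 19.2 ± 0.780, Mnt at 15.7 ± 1.17, Mycl at 4.76 ± 0.452 and Mxd3 at 2.78 ± 0.153 CPM per kb. No neighbours in this order overlapped in their 3 libraries. Of the summed level per length of Mycn, Myc and Mycl, which was 97.0 ± 2.78 CPM per kb, Mycn held 63.8% ± 2.46, Myc 31.2% ± 1.88 and Mycl 4.92% ± 0.598 (SD, n = 3). In Ctrl MCM2-2A at T0 the order at the top was different: Myc at 56.2 ± 2.88 and Mycn at 56.1 ± 8.31 CPM per kb overlapped. There the sum was 116.0 ± 11.6 CPM per kb, of which Mycn held 48.3% ± 2.29 and Myc 48.7% ± 2.36. In dPOLE4 MCM2-2A, Myc stood above Mycn with no overlap, at 49.7 ± 0.801 against 44.2 ± 4.46 CPM per kb at T0 and 53.0 ± 8.94 against 39.9 ± 1.35 after 96 h.

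After 12 h of RA most of the summed level of the 3 Myc paralogs was gone, and a different paralog held the largest share. The sum in Ctrl was 36.3 ± 3.33 CPM per kb at T12, 27.7 ± 2.00 at T24 and 41.7 ± 2.18 at T60, and the libraries of T0 lay above all later ones. Myc held 58.6% ± 2.49 of it at T12 and 53.6% ± 2.85 at T24. By T60 Mycn was again the largest share at 47.2% ± 2.22, against 35.0% ± 1.94 for Myc and 17.8% ± 0.765 for Mycl. At that time Mycn (19.7 ± 1.59 CPM per kb) and Mnt (19.3 ± 1.43) overlapped, as did Max (15.3 ± 0.316) and Myc (14.6 ± 1.10).

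**Figure D1:**
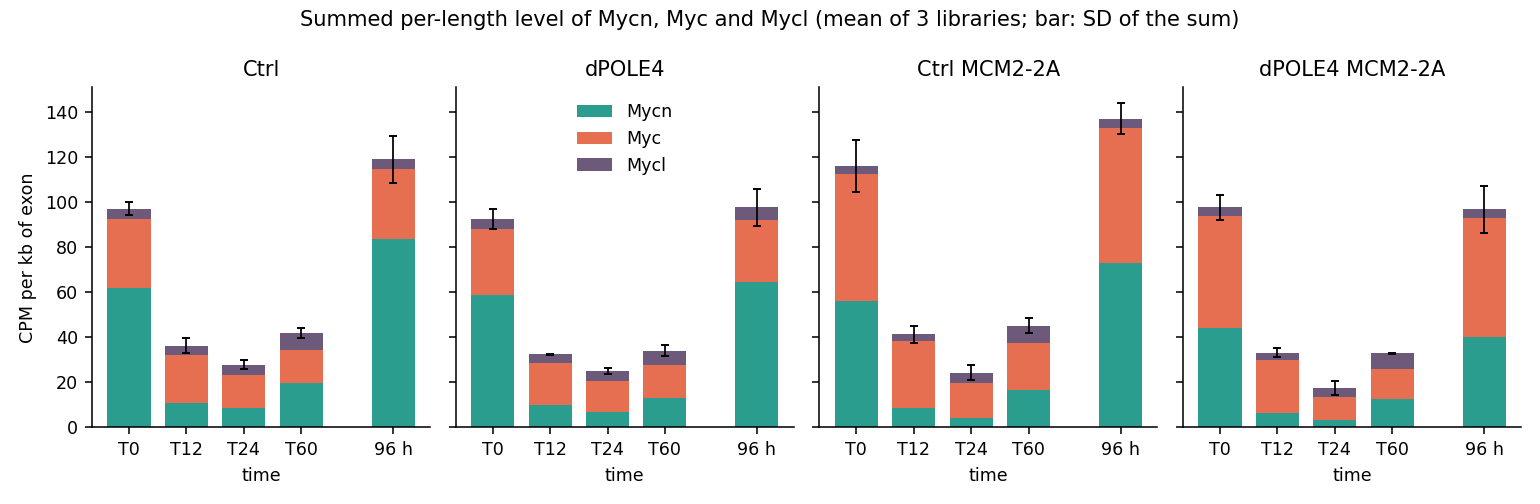
Stacked bars of the level per length (CPM per kb of exon, mean of 3 libraries) of Mycn, Myc and Mycl in the 4 conditions at T0, T12, T24, T60 and, from a separate experiment, after 96 h; the black bars are the SD of the sum over 3 libraries. In Ctrl the sum was 97.0 CPM per kb at T0 and 27.7 at T24, and in Ctrl MCM2-2A the Myc and Mycn parts were of like height at T0.

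Mycn was high in the libraries without RA, lowest at T24 and partly back at T60. In Ctrl its libraries read 202, 219 and 192 CPM at T0, 32.8, 42.7 and 31.2 CPM at T12, 25.5, 29.2 and 27.8 CPM at T24, and 68.6, 58.9 and 67.0 CPM at T60. The T60 libraries lay above every library of T12 and T24 and below every library of T0. Against T0 the log2 fold change was -2.53 (SE 0.10, 5.76-fold lower) at T12, -2.89 (SE 0.063, 7.40-fold lower) at T24 and -1.67 (SE 0.072, 3.19-fold lower) at T60. The lowest library of the RA experiment, 7.97 CPM, was one of dPOLE4 MCM2-2A at T24, and in the 96 h experiment the highest, 302 CPM, was one of Ctrl.

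Myc went down more slowly and did not come back. Its Ctrl libraries read 80.9, 80.2 and 85.6 CPM at T0, 56.4, 60.8 and 55.6 CPM at T12, 35.4, 40.6 and 45.4 CPM at T24, and 42.7, 39.5 and 36.8 CPM at T60. The last 2 groups overlapped each other and neither overlapped T12. The log2 fold change against T0 was -0.51 (SE 0.060) at T12, -1.03 (SE 0.072) at T24 and -1.07 (SE 0.071) at T60.

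Mycl, the paralog with the lowest level per length in Ctrl, was the one Myc gene that stood higher at T60 than at T0. At T24 in the MCM2-2A background its mean lay above that of Mycn. It stood at 4.65 against 4.19 CPM per kb in Ctrl MCM2-2A, with overlap, and at 4.09 against 3.07 in dPOLE4 MCM2-2A. Its Ctrl libraries read 19.5, 17.3 and 20.9 CPM at T0, between 14.9 and 19.3 CPM at T12 and T24, and 30.2, 29.7 and 29.6 CPM at T60. The T60 libraries lay above all others, with a log2 fold change of 0.61 (SE 0.090) against T0, called with all libraries and not without Ctrl T0 replicate 2 (0.53), with TMM factors from genes only (0.58) or with no filter (0.58).

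Max and Mga, the 2 members that also sit in PRC1.6, were lower at each later time. Max libraries in Ctrl read 79.7, 79.0 and 84.9 CPM at T0 and 54.0, 56.3 and 54.9 CPM at T60, with no overlap and a log2 fold change of -0.58 (SE 0.063). Max lay at the threshold and was not called without Ctrl T0 replicate 3 (-0.55), Ctrl T60 replicate 1 (-0.56) or Ctrl T60 replicate 3 (-0.57), with the replicate number as a block (-0.58) or with all groups in 1 fit (-0.56). Mga libraries in Ctrl read 281, 304 and 298 CPM at T0, 218, 178 and 242 CPM at T12, 188, 198 and 194 CPM at T24, and 137, 161 and 158 CPM at T60. The groups of T0, T24 and T60 did not overlap, and Mga was 1.96-fold lower at T60 than at T0 (log2 fold change -0.97, SE 0.070).

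The antagonists Mxd3 and Mnt did not share a course. Mxd3 libraries in Ctrl read 6.75, 6.84 and 6.17 CPM at T0, overlapped these at T12 and T24, and read 5.17, 3.38 and 4.41 CPM at T60 (log2 fold change -0.60, SE 0.17). The call of Mxd3 was lost without Ctrl T0 replicate 1 (-0.58), Ctrl T0 replicate 2 (-0.59), Ctrl T60 replicate 2 (-0.46) or Ctrl T60 replicate 3 (-0.60), and under DESeq2 (-0.61). Mnt libraries in Ctrl read 66.8, 77.3 and 74.3 CPM at T0, 51.8, 61.3 and 50.9 CPM at T12, 53.1, 63.0 and 58.7 CPM at T24, and 95.4, 82.3 and 90.3 CPM at T60. Mnt was thus lower than at T0 in the middle of the course (-0.41 at T12, SE 0.080) and higher at its end (0.28, SE 0.071), each time with no overlap and without being called. Of all features in Ctrl, 46.7% at T12, 61.2% at T24 and 77.2% at T60 did not overlap T0, beside 5, 5 and 7 of the 7 members.

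In Ctrl, 1 of the 7 genes was called at T12 (11.3% of all features tested were called), 3 at T24 (21.8%) and 6 at T60 (50.6%). At T60 in the other conditions, 5 were called in dPOLE4 (48.1%), 6 in Ctrl MCM2-2A (47.5%) and 6 in dPOLE4 MCM2-2A (42.2%). The T60 values in dPOLE4, Ctrl MCM2-2A and dPOLE4 MCM2-2A were -2.19, -1.76 and -1.83 for Mycn, -1.04, -1.41 and -1.92 for Myc, and 0.49, 1.17 and 0.85 for Mycl on the log2 scale. Max lay between -0.70 and -1.01, Mxd3 between -0.63 and -0.70 and Mga between -0.73 and -0.91 in these 3 conditions. The Mxd3 call in Ctrl MCM2-2A was lost without Ctrl MCM2-2A T60 replicate 1 (-0.54) or with at least 10 counts in every library (-0.57), and in dPOLE4 MCM2-2A without T0 replicate 1 (-0.58) or T60 replicate 2 (-0.58). Mnt was the member whose sign differed: 0.10 in dPOLE4, -0.33 in Ctrl MCM2-2A and -0.51 in dPOLE4 MCM2-2A, where it was called lower without dPOLE4 MCM2-2A T0 replicate 3 (-0.60).

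**Figure D2:**
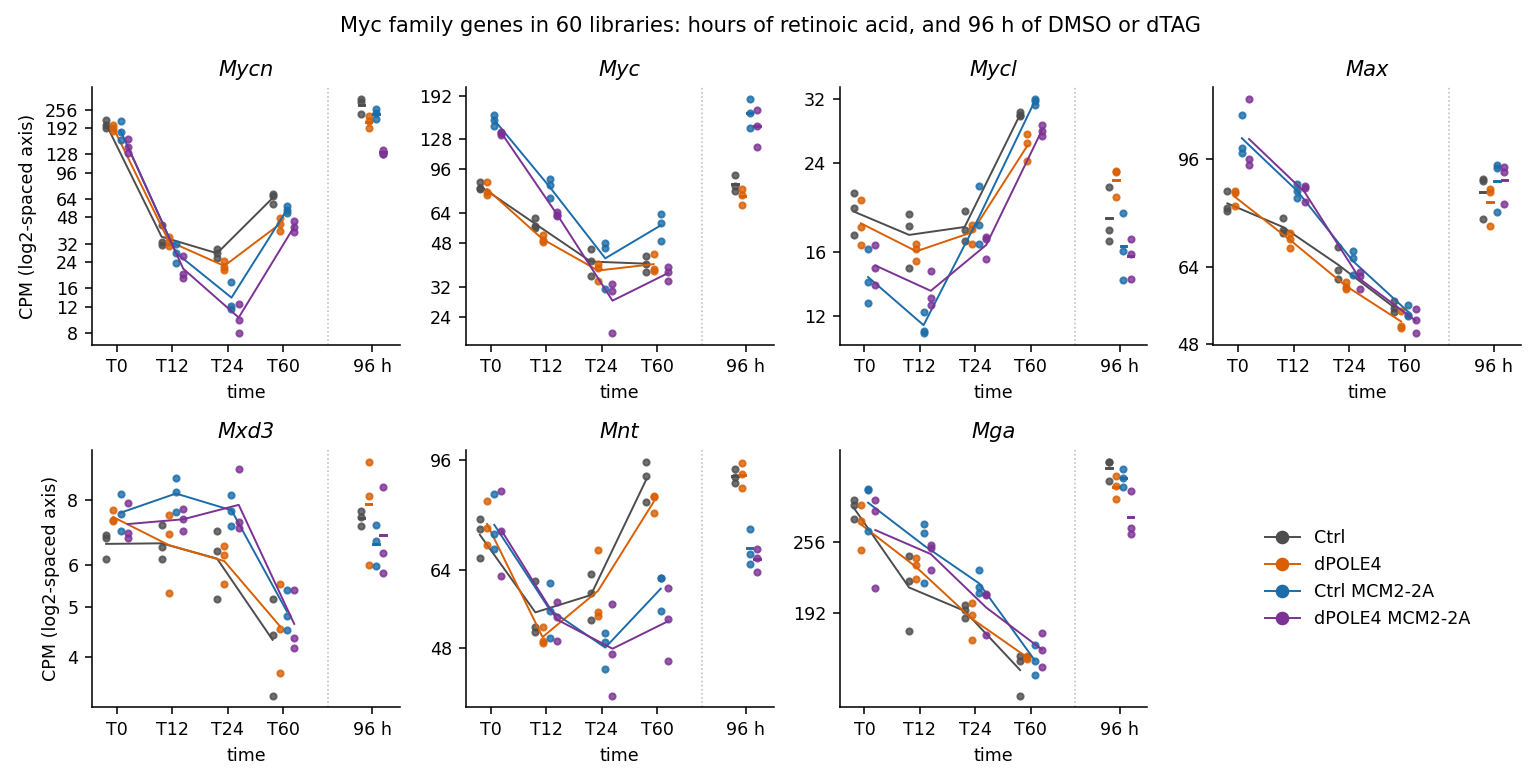
CPM of each of the 7 genes in all 60 libraries (points, log2-spaced axis) at 0, 12, 24 and 60 h of RA and, right of the dotted line, in the separate 96 h experiment; lines join group means of 3 libraries and the times are drawn at equal spacing. Mycn in Ctrl passed from 202, 219 and 192 CPM at T0 to 25.5, 29.2 and 27.8 CPM at T24, while Mycl was highest at T60.

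Outside the 7 genes, Mxd4 rose most among the other genes of the MAX and MLX network in Ctrl at T60. Mxd4, a MAX-dependent repressor associated with differentiation, read 5.67 ± 0.770 CPM in Ctrl at T0, 10.9 ± 1.36 at T12, 27.3 ± 1.42 at T24 and 66.0 ± 3.09 at T60 (SD, n = 3), with no overlap between times. It rose by 3.52 on the log2 scale at T60 (SE 0.098, edgeR quasi-likelihood adjusted p = 1.93e-13). Of the 7 tested genes of this list, 3 rose and 1 fell in Ctrl at T60, with a list median of 0.28 against -0.013 over all features. The other 2 that rose were Bmyc (1.00, SE 0.14, edgeR adjusted p = 1.42e-05), which resembles the start of MYC, and Mlxip (0.63, SE 0.059, edgeR adjusted p = 1.53e-07), a glucose-responsive partner of MLX. Its relative Mlxipl rose at T12 (1.03, SE 0.12, edgeR adjusted p = 5.75e-05) and had fallen at T60 (-1.21, SE 0.17, edgeR adjusted p = 8.96e-06). Mycs did not pass the filter on low counts and was not tested.

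The partners of MGA and MAX in PRC1.6 did not move one way. In Ctrl at T60, 3 of 9 rose and 4 fell, with a median of -0.33, while 26.9% of all features rose and 23.7% fell. L3mbtl2, a core subunit that binds methylated histone tails, read 199 CPM at T0 and 87.8 CPM at T60 (-1.20, SE 0.062, edgeR adjusted p = 1.83e-10). Pcgf6, the ring finger subunit that defines the complex, fell by 1.03 (SE 0.075, edgeR adjusted p = 7.54e-09). Yaf2, which can replace RYBP in Polycomb complexes, rose by 2.06 (SE 0.12, edgeR adjusted p = 3.76e-10), and Rybp itself fell by 0.83 (SE 0.055, edgeR adjusted p = 2.85e-09). Of 9 germline genes that MGA, MAX and PRC1.6 are known to repress, 3 rose and 2 fell at T60 in Ctrl (median 0.50), which is 33.3% and 22.2% of them and near the shares over all features. Taf7l, a germ cell TFIID subunit, rose from 1.14 to 7.11 CPM (2.60, SE 0.21, edgeR adjusted p = 2.63e-08), and Sycp3, of the meiotic chromosome axis, fell from 4.75 to 0.917 CPM (-2.44, SE 0.28, edgeR adjusted p = 1.28e-06). With at least 10 counts required in every library, 1 germline gene fell at T60.

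Among 15 regulators of MYC protein turnover and cofactors, 6 fell and 1 rose in Ctrl at T60 (median -0.43), against 23.7% and 26.9% of all features. Usp28, a deubiquitinase that protects MYC from the ubiquitin ligase FBXW7, fell at every time, from 122 CPM at T0 to 35.5 CPM at T60 (-1.80, SE 0.068, edgeR adjusted p = 5.72e-12). Wdr5, a chromatin cofactor that contacts MYC, fell by 0.87 at T12 (SE 0.054, edgeR adjusted p = 2.19e-07) and by 1.13 at T60 (SE 0.061, edgeR adjusted p = 2.67e-10). Ruvbl1 and Ruvbl2, the paired ATPases of chromatin remodellers bound by MYC, fell by 1.09 and 0.96 at T60.

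The genes that MYC proteins activate passed both thresholds mostly at T60, and their median was lower at each later time. Of 50 such genes, mostly of ribosome biogenesis, 0 fell at T12 (1 rose, median -0.17, against -2.53 for Mycn), 6 fell at T24 (1 rose, median -0.36) and 45 fell at T60 (1 rose, median -1.03). Over all features tested, 4.04%, 8.27% and 23.7% fell at these times and the medians were 0.006, 0.004 and -0.013. At T60 Mycn (-1.67) stood above its T24 level and below T0, and Myc (-1.07) stood below T0. A link between these values and those of the list was not tested. Srm, the spermidine synthase, read 267 CPM at T0, 216 CPM at T12, 161 CPM at T24 and 70.7 CPM at T60 (-1.93, SE 0.076, edgeR adjusted p = 9.28e-12). Rrp9, a component of the U3 ribonucleoprotein, fell by 1.80 (SE 0.087, edgeR adjusted p = 8.01e-11), and Polr1b, of RNA polymerase I, by 1.62 (SE 0.072, edgeR adjusted p = 3e-11). The gene that rose at all 3 times was Ccnd2, a G1 cyclin, from 22.0 to 104 CPM at T60 (2.23, SE 0.086, edgeR adjusted p = 7.1e-12). At T60, 45 genes of the list fell in dPOLE4, 42 in Ctrl MCM2-2A and 41 in dPOLE4 MCM2-2A, and 1 rose in each. At T12 DESeq2 also called 0 lower, while 29 of the 50 were lower at an unadjusted p under 0.05 in edgeR. Of all 17673 features tested at T12, 7597 had such a p in either direction.

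Genes of the LIF pathway fell mostly early in the course. Of 8 genes, 5 fell at T12 and 5 at T24 in Ctrl, and 3 fell at T60, while 1 rose at each time. Of all features, 4.04%, 8.27% and 23.7% fell at these times. Socs3, a direct STAT3 target and feedback inhibitor, read 93.9 CPM at T0, 20.2 at T12, 14.4 at T24 and 56.3 at T60, with log2 fold changes of -2.20 (SE 0.13, edgeR adjusted p = 1.21e-07), -2.69 (SE 0.10, edgeR adjusted p = 3.1e-11) and -0.76 (SE 0.10, edgeR adjusted p = 8.4e-06). Stat3 itself fell by 1.36 at T12 (SE 0.058, edgeR adjusted p = 9.27e-09). Pim1, a kinase gene that STAT3 induces, rose at T12 (1.11, SE 0.075, edgeR adjusted p = 4.33e-07) and had fallen at T60 (-0.65, SE 0.075, edgeR adjusted p = 1.53e-06).

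Over the 16 groups of the RA experiment, the 5 genes most like Mycn among 3965 candidates, by Pearson's r of group means of log2 CPM, were Arid5b (0.983), Ddx58 (0.970), Socs3 (0.928), Epha4 (0.927) and Dab1 (0.924). Those most like Myc were Grhl2 (0.913), Tor3a (0.903), Zfp428 (0.898), 1700030C10Rik (0.892) and Zfp710 (0.888), and those most like Mycl were Ctnnd2 (0.972), Tpm4 (0.971), Ttc28 (0.971), B2m (0.963) and Amot (0.963). Among the members, r was highest between Max and Mga (0.934) and lowest between Mycl and Mxd3 (-0.900), and Mycn and Myc reached 0.745. The points share the same libraries and the same RA course.

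After degradation of POLE4, Mycn was below its control in all 10 comparisons and was called in 1 of them. The share of all features that kept 1 sign throughout was not computed. In the WT background 0 members were called at each of T0 (0.0% of all features called), T12 (0.0%), T24 (0.0%), T60 (0.193%) and 96 h (0.0%), and DESeq2 called 0 members there as well. At T0, T12, T24 and 96 h, 2069, 1150, 1451 and 2164 features had an unadjusted p under 0.05 in edgeR. In the MCM2-2A background 0 were called at T0 (0.0715%), T12 (0.404%) and T24 (1.02%), 1 at T60 (2.25%) and 1 after 96 h (0.304%). As a contrast of contrasts, the dPOLE4 effect in MCM2-2A minus that in WT called 0 members at T0 (0.00526% of features), T60 (0.1%) and 96 h (0.0%), with -0.64 (SE 0.13) for Myc at T60 and -0.50 (SE 0.13) for Mycn at 96 h.

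Mycn lay furthest below its control at T60 in the WT background and after 96 h in the MCM2-2A background. In the WT background the log2 fold change of Mycn was -0.09 at T0 (SE 0.06) and -0.09 at T12 (SE 0.11), both with overlap. It was -0.28 at T24, -0.57 at T60 and -0.37 after 96 h. In the MCM2-2A background it was -0.33, -0.36, -0.48, -0.38 and -0.87 in the same order. The groups did not overlap in 5 of the 10, and over the 10 comparisons 13.2% to 28.8% of all features did not overlap. At T60 the Ctrl libraries read 68.6, 58.9 and 67.0 CPM and the dPOLE4 libraries 43.2, 39.1 and 47.5 CPM, so that every dPOLE4 library lay below every Ctrl library. This value (-0.57, SE 0.078) lay just under the fold threshold, and it passed without Ctrl T60 replicate 2 (-0.63) or dPOLE4 T60 replicate 3 (-0.65). The dPOLE4 libraries at T60 also held less of the fibroblast (342 to 359 CPM in sum against 435 to 570), primitive endoderm (227 to 274 against 281 to 346) and neural progenitor markers (271 to 281 against 301 to 329) and more of the trophoblast markers (1060 to 1110 against 868 to 1040 CPM), and their part in the Mycn value was not tested. After 96 h in the MCM2-2A background the Ctrl MCM2-2A libraries read 244, 258 and 220 CPM and the dPOLE4 MCM2-2A libraries 129, 129 and 137 CPM, 1.83-fold lower (SE 0.078 on the log2 scale). That call was lost without Ctrl MCM2-2A 96h replicate 3 (-0.94), dPOLE4 MCM2-2A 96h replicate 2 (-0.85) or dPOLE4 MCM2-2A 96h replicate 3 (-0.90). These dPOLE4 MCM2-2A libraries held more of the trophoblast (105 to 145 against 73.6 to 100 CPM) and fibroblast markers (43.5 to 52.9 against 34.2 to 42.6 CPM), whose part was likewise not tested.

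Myc was below its control in 9 of the 10 comparisons, by up to 0.20 on the log2 scale in the WT background. In the MCM2-2A background it stood at -0.17 at T0, -0.37 at T12, -0.57 at T24, -0.65 at T60 and -0.18 after 96 h. At T60 the Ctrl MCM2-2A libraries read 49.1, 57.9 and 63.5 CPM and the dPOLE4 MCM2-2A libraries 33.7, 36.6 and 38.6 CPM, with no overlap (SE 0.099). The call at T60 was lost without Ctrl MCM2-2A T60 replicate 2 (-0.62), Ctrl MCM2-2A T60 replicate 3 (-0.56) or dPOLE4 MCM2-2A T60 replicate 2 (-0.65). The other 5 genes stayed between -0.22 and 0.26 in all 10 comparisons, and none of them was called.

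The dPOLE4 MCM2-2A libraries at T60 also held less of the 6 fibroblast markers (113 to 129 CPM in sum against 228 to 252 CPM), neural progenitor markers (166 to 184 against 215 to 247 CPM), primitive endoderm markers (393 to 438 against 501 to 557 CPM) and RA response markers (530 to 579 against 634 to 638 CPM). They held more of the 6 embryonic stem cell markers (358 to 459 against 263 to 353 CPM), and the part of these differences in the Myc value was not tested. In edgeR and in DESeq2, 0 of the 50 genes activated by MYC proteins were called in each of the 10 comparisons, with medians between -0.09 and 0.02, and 3 to 10 of them were lower at an unadjusted p under 0.05. Over all features, from 1150 of 17914 (WT at T12) to 4302 of 18473 (MCM2-2A at T60) had such a p in edgeR, in either direction. Of the 50 genes, 1 was called lower at T24 in WT without dPOLE4 T24 replicate 2, at T24 in MCM2-2A without Ctrl MCM2-2A T24 replicate 2 or dPOLE4 MCM2-2A T24 replicate 3, and at T60 in MCM2-2A without Ctrl MCM2-2A T60 replicate 2. Of the germline genes, Slc25a31, Stk31 and Taf7l rose in dPOLE4 MCM2-2A at T60 (0.96, 0.74 and 0.66, edgeR adjusted p = 0.00446, 0.00537 and 0.00393). Without any 1 Ctrl MCM2-2A library 0 of these calls remained, and 1 did without dPOLE4 MCM2-2A T60 replicate 1 or 2. After 96 h in the MCM2-2A background 0 germline genes were called (4 were higher and 1 lower at an unadjusted p under 0.05), and 1 in DESeq2, 1 with no filter and 3 with the replicate number as a block. Of all 17421 features tested there, 2004 had an unadjusted p under 0.05 in edgeR, in either direction.

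**Figure D3:**
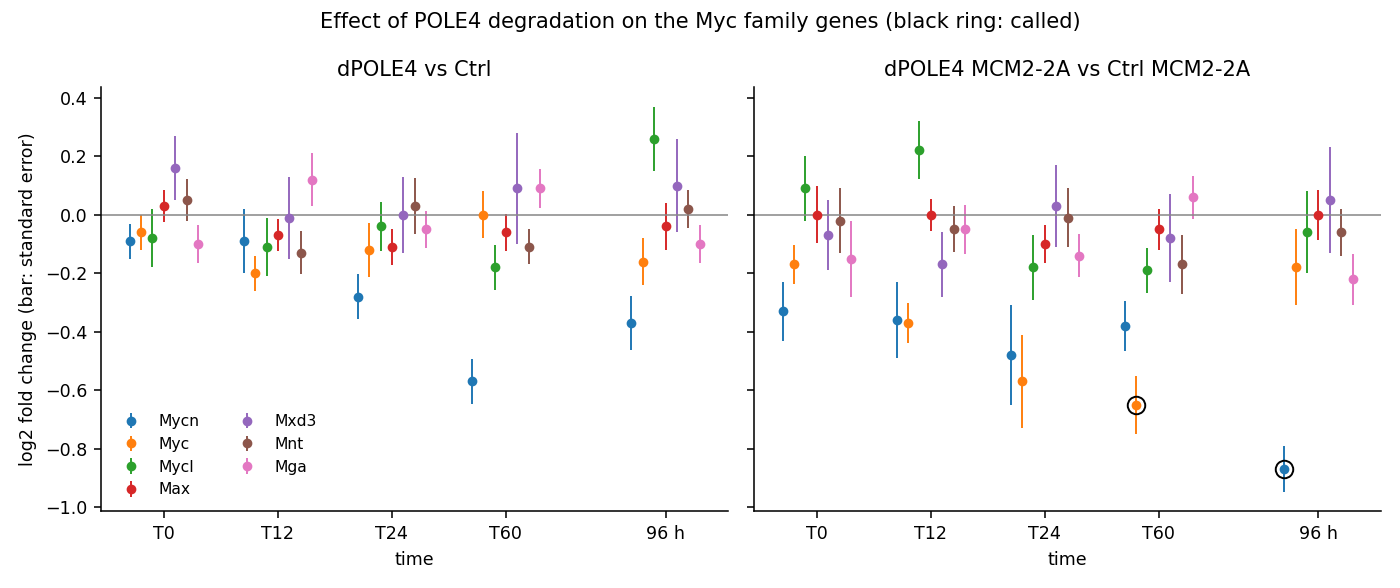
Log2 fold change of the 7 genes, dPOLE4 against its own control, in the WT (left) and MCM2-2A (right) background; bars are standard errors from 3 libraries a group and black rings mark called values. Mycn lay below 0 in all 10 comparisons, from -0.09 to -0.87, and Myc reached -0.65 in MCM2-2A at T60.

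Myc was the member that differed most between Ctrl MCM2-2A and Ctrl before RA. Of the 7 genes, 1 was called at T0 (Myc, where 18.9% of all features were called), 1 at T12 (Mycl, 14.5%), 1 at T24 (Mycn, 17.3%), 0 at T60 (16.9%) and 1 after 96 h (Myc, 15.7%). Myc read 160, 153 and 145 CPM in Ctrl MCM2-2A at T0 against 80.9, 80.2 and 85.6 CPM in Ctrl (log2 fold change 0.87, SE 0.052), and 141, 163 and 186 CPM against 82.2, 78.1 and 91.4 CPM after 96 h (0.98, SE 0.10). The groups did not overlap at T0, T12 (0.51), T60 (0.53) or 96 h, and overlapped at T24 (0.07), and the T60 value was called without Ctrl MCM2-2A T60 replicate 1 (0.63). Of all features, 46.1% to 55.0% did not overlap in these 5 comparisons. Myc lies on chromosome 15, whose 678 other tested genes had a median of 0.56 at T0, with 87.0% of them above 0 and 23.2% of them above Myc. The chromosome median was 0.51 at T12, 0.52 at T24, 0.47 at T60 and 0.53 after 96 h. Relative to it, Myc stood at 0.32 at T0, -0.01 at T12, -0.45 at T24, 0.06 at T60 and 0.45 after 96 h. Relative to the 36 genes that start within 5 Mb it stood at 0.43 at T0, and 4 of these genes exceeded it. The part of the chromosome in the Myc value was not tested.

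Pvt1, the non-coding RNA gene next to Myc, was higher in Ctrl MCM2-2A at all 5 times. It read 12.1, 16.9 and 16.8 CPM at T0 against 8.17, 8.10 and 8.40 CPM (0.88, SE 0.14, edgeR adjusted p = 0.000352). It stood at 1.11 (SE 0.12) at T12, 0.76 (SE 0.12) at T24, 1.83 (SE 0.18, edgeR adjusted p = 1.71e-06) at T60 and 1.02 (SE 0.14) after 96 h. Less the chromosome median, Pvt1 stood at 0.32 at T0, 0.6 at T12, 0.23 at T24, 1.36 at T60 and 0.49 after 96 h. By the same measure Myc stood at 0.32 at T0 and 0.06 at T60. Within the RA course of Ctrl, Pvt1 fell by 0.79, 0.63 and 1.76 at T12, T24 and T60.

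Mycn and Mycl were lower in Ctrl MCM2-2A at some times, with chromosome medians near 0. Mycn at T24 read 11.6, 17.6 and 12.2 CPM in Ctrl MCM2-2A against 25.5, 29.2 and 27.8 CPM in Ctrl (-0.93, SE 0.12), where the median of chromosome 12 was 0.05 and 41 of the 42 genes within 5 Mb lay above it. The Ctrl MCM2-2A libraries at T24 also held less of the 5 neural progenitor markers (71.5 to 79.4 CPM in sum against 148 to 160 CPM), of the 6 fibroblast markers (41.2 to 45.7 against 82.0 to 88.8 CPM) and of the 5 trophoblast markers (136 to 162 against 197 to 206 CPM). The part of these markers in the Mycn value was not tested. At the other 4 times Mycn lay between -0.16 and -0.35. Mycl at T12 read 11.1, 11.2 and 12.2 CPM against 18.0, 19.0 and 14.9 CPM (-0.58, SE 0.11). This value lay at the threshold, and without any 1 of Ctrl T12 replicates 1 and 2 and Ctrl MCM2-2A T12 replicates 1 and 2 it was -0.51 to -0.57 and not called. At T0 Mycl stood at -0.46 with no overlap, and at T24, T60 and 96 h between -0.17 and 0.10.

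Mnt lies on chromosome 11, whose tested genes were lower in Ctrl MCM2-2A, with medians between -0.48 and -0.55 over the 5 times. Mnt did not follow them at T0 (0.03) or T12 (0.02) and stood at -0.25 at T24, -0.58 at T60 and -0.37 after 96 h. Less the chromosome median these values were 0.51, 0.53, 0.24, -0.03 and 0.14. At T60 Mnt read 62.0, 55.0 and 62.0 CPM against 95.4, 82.3 and 90.3 CPM in Ctrl, and it passed the threshold without Ctrl T60 replicate 2 (-0.63), Ctrl MCM2-2A T60 replicate 1 (-0.60) or Ctrl MCM2-2A T60 replicate 3 (-0.59). Mlx, the partner of MLXIP and MLXIPL and also on chromosome 11, was lower at all 5 times (-0.74 to -0.80), from 50.9 to 30.2 CPM at T0 (edgeR adjusted p = 1.65e-06). Max was higher at T0 (0.33, with no overlap) and Mxd3 stood between -0.15 and 0.32 and Mga between -0.04 and 0.26.

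**Figure D4:**
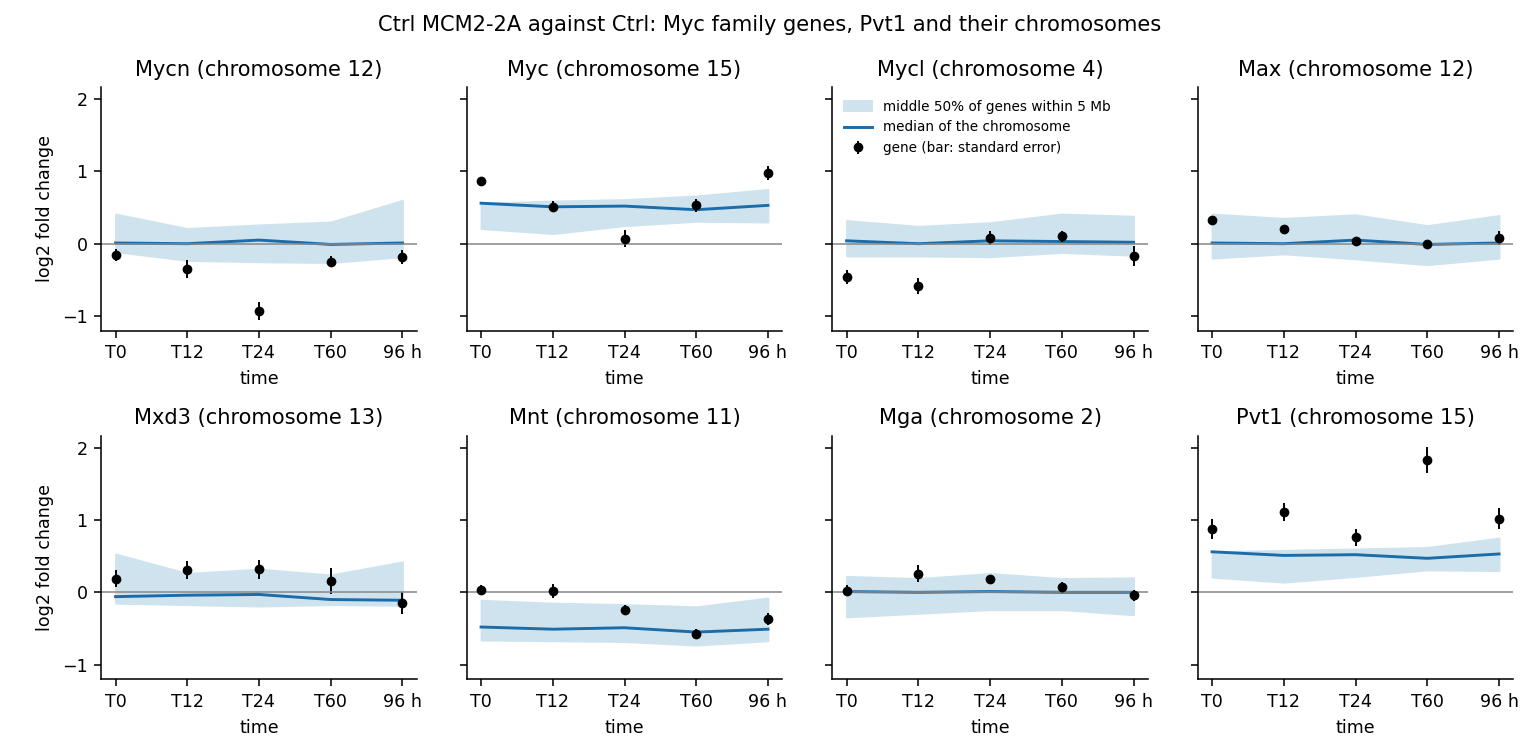
Log2 fold change of Ctrl MCM2-2A against Ctrl for the 7 genes and Pvt1 at 5 times (points with standard errors, 3 libraries a group), the median of all tested genes of the same chromosome (line) and the middle 50% of the genes that start within 5 Mb (band). Myc lay above the band at T0 (0.87) and after 96 h (0.98), inside it at T12 and T60, and below it at T24 (0.07), and Mnt met the lower level of chromosome 11 at T60.

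Of the 50 genes activated by MYC proteins, 2 were higher and 1 lower at T0, where Myc was 1.83-fold higher, with a median of 0.16 against -0.018 over all features. The 3 were Ldha, a glycolytic enzyme (0.78, edgeR adjusted p = 7.11e-06), Bop1, of the large ribosomal subunit assembly complex (0.72, edgeR adjusted p = 1.43e-06), and Eif4a1, a translation initiation helicase (-0.70, edgeR adjusted p = 1.24e-06). Their values were not set against the medians of their chromosomes, and the part of the chromosome in them was not tested. Without Ctrl MCM2-2A T0 replicate 1, 2 genes of this list were lower. Of the 9 germline genes, 4 were higher and 1 lower at T0 (9.83% of all features were higher and 9.06% lower). At T24, 6 were higher and 1 lower (9.71% and 7.6% of all features). The T24 call of Slc25a31 was lost without Ctrl MCM2-2A T24 replicate 3 (0.57), and the 1 lower call without Ctrl T24 replicate 3. Sycp3 was higher at all 5 times, by 1.79 at T0 (SE 0.13, edgeR adjusted p = 8.25e-07) and 2.39 at T60 (SE 0.26, edgeR adjusted p = 4.12e-06), and Taf7l by 1.98 at T0 (SE 0.22, edgeR adjusted p = 1.8e-05). The Sycp3 value after 96 h (1.25) was not called without Ctrl 96h replicate 2 (1.11) or Ctrl 96h replicate 3 (1.14), under DESeq2 (1.30) or with all groups in 1 fit (1.23). Of the 9 PRC1.6 partners 0 were called at T0 in edgeR or DESeq2, 3 were higher at an unadjusted p under 0.05, and 1 was called without Ctrl MCM2-2A T0 replicate 3. Of all 17972 features tested at T0, 9586 had an unadjusted p under 0.05 in edgeR, in either direction. In Ctrl MCM2-2A at T0, 5 primitive endoderm markers summed to 34.0 to 44.1 CPM against 12.4 to 22.7 CPM in Ctrl, 6 fibroblast markers to 37.2 to 50.2 against 53.9 to 61.4 CPM and 5 trophoblast markers to 88.7 to 97.4 against 168 to 232 CPM. The 5 neural progenitor markers summed to 152 to 174 against 216 to 224 CPM and the 6 RA response markers to 11.7 to 13.2 against 7.03 to 8.30 CPM. The part of these differences in the values of the Myc family genes was not tested.

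The difference of the RA response at T60 between the backgrounds was called for 1 member. Mnt was 0.64 lower on the log2 scale in the response of Ctrl MCM2-2A than in that of Ctrl (-0.64, SE 0.11), and 9.1% of all features were called in that contrast. The value was -0.55 without Ctrl T60 replicate 1, -0.55 without Ctrl MCM2-2A T0 replicate 1 and -0.54 without Ctrl MCM2-2A T60 replicate 2, and it was then not called. Mycl (0.53), Myc (-0.38) and Max (-0.38) lay under the threshold, and Mycl passed it without Ctrl T0 replicate 2 (0.60) or Ctrl MCM2-2A T0 replicate 1 (0.62). In the response of dPOLE4 minus that of Ctrl (0.0104% of features called) the largest difference was that of Mycn (-0.50, SE 0.10), and in dPOLE4 MCM2-2A minus Ctrl MCM2-2A (0.254%) it was that of Myc (-0.49, SE 0.12), with 0 members called in either. Ctrl MCM2-2A libraries at T60 held more of the embryonic stem cell markers than Ctrl (263 to 353 against 123 to 151 CPM in sum). They held more of the primitive endoderm (501 to 557 against 281 to 346) and trophoblast markers (1180 to 1410 against 868 to 1040). They held less of the fibroblast (228 to 252 against 435 to 570) and neural progenitor markers (215 to 247 against 301 to 329). Their part in the T60 and response differences between the backgrounds was not tested.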

How the data were processed

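Total RNA was depleted of rRNA and sequenced from strand-specific libraries. The authors trimmed reads with cutadapt 4.2, aligned them to mm10 with STAR, keeping reads with several hits, and counted them over GENCODE M25 genes and repeat subfamilies with TEcount. The deposited counts were raw and not pooled, 1 table for the RA experiment and 1 for the 96 h experiment, which were normalised and tested separately. The sample names give 12, 24 and 60 h of RA and were used, although the labels' treatment text lists other hours.

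Counts of 56633 features (55487 genes and 1146 repeats) were filtered with filterByExpr and scaled with TMM. The groups of each comparison were fitted alone in edgeR 4.0.16 (quasi-likelihood F test, R 4.3.3), with Benjamini-Hochberg adjustment over all features. Called means an adjusted p below 0.01 and a log2 fold change beyond 0.58. The fits were tested on simulated counts. The members and lists were chosen with earlier results of these data known. Named from the lists were called genes, at most the 6 largest per list and comparison, Pvt1, and those that a count of 5 or fewer refers to, and the 5 genes most like Mycn, Myc and Mycl among those with a mean of at least 1 log2 CPM and an SD of group means of at least 0.5. Alternatives were DESeq2 1.42.0, its size factors, TMM from genes only, a floor of 10 counts per library, no filter on low counts, all groups in 1 fit, a replicate block and leaving out each library. Deviations from group means of same-numbered libraries correlated above 0.1 in every pair for dPOLE4 against control at T0 and 96 h (lowest 0.111 and 0.187 in WT, 0.14 and 0.128 in MCM2-2A) and for Ctrl MCM2-2A against Ctrl at 96 h (lowest 0.113), which were taken as paired. The main fits did not model this pairing, so that their values, standard errors and calls are unpaired. The replicate block was run only as an alternative. Degradation acts on the protein, so that Pole4 counts do not check the labels.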

Additional observations from a re-analysis of the deposited data

Results flagged for a closer look

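The RA response at T60 differed between Ctrl MCM2-2A and Ctrl, by the interaction term of edgeR's quasi-likelihood test, for 8 of the genes described here; each value is the log2 response of Ctrl MCM2-2A minus that of Ctrl, with 3 libraries a group. Among the 7 members this was Mnt, at -0.64, given as a description. The germline genes Taf7l (-1.52, edgeR adjusted p = 0.000162) and Mael (-0.82, edgeR adjusted p = 0.00117) were lower in the response of Ctrl MCM2-2A. Socs3 stood at -0.79 (edgeR adjusted p = 0.0028) and Pim3, a kinase gene that STAT3 induces, at -0.65 (edgeR adjusted p = 0.00405). Zbtb17, which encodes the MYC partner MIZ1, stood at -0.60 (edgeR adjusted p = 0.000321). Pvt1 (0.92, edgeR adjusted p = 0.0096) and the telomerase gene Tert (0.62, edgeR adjusted p = 0.00115) were higher in the response of Ctrl MCM2-2A. Of these calls, those of Taf7l and Mael held without any 1 library, and that of Mnt was lost without Ctrl T60 replicate 1 (-0.55), Ctrl MCM2-2A T0 replicate 1 (-0.55) or Ctrl MCM2-2A T60 replicate 2 (-0.54). Tert was not called without Ctrl T0 replicate 2 (0.56). Socs3 was not called without Ctrl T0 replicate 3, Ctrl T60 replicate 1 or 3, or Ctrl MCM2-2A T60 replicate 2 or 3 (-0.65 to -0.75). Zbtb17 was not called without Ctrl T60 replicate 1 or 3, Ctrl MCM2-2A T0 replicate 1, or Ctrl MCM2-2A T60 replicate 1 or 2 (-0.52 to -0.55). Pim3 was not called without Ctrl T0 replicate 2 or 3, Ctrl T60 replicate 1 or 3, Ctrl MCM2-2A T0 replicate 1, or Ctrl MCM2-2A T60 replicate 2 or 3 (-0.48 to -0.62). Pvt1 was called with all libraries and lost without any 1 of the 12 except Ctrl MCM2-2A T0 replicate 3 and Ctrl MCM2-2A T60 replicate 3 (0.78 to 1.05), and also lost with TMM factors from genes only (0.94) and with at least 10 counts in every library (0.93). Zbtb17 was also not called with no filter (-0.57). The part of the T60 marker differences between the backgrounds, given above, in these 8 values was not tested.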

How the results depend on the processing

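No called value changed sign under any of the alternatives run. In Ctrl MCM2-2A against Ctrl, uncalled values changed sign less the chromosome median for Myc at T12 (0.51 to -0.01) and T24 (0.07 to -0.45) and for Mnt at T24 (-0.25 to 0.24) and 96 h (-0.37 to 0.14), and uncalled values also did so in some fits without 1 library. The number of the 7 members called changed by more than 1.5 times under DESeq2 in 3 of the 27 comparisons, under DESeq2's size factors in 2, with TMM from genes only in 1, with all groups in 1 fit in 2, with no filter in 1 and with at least 10 counts in every library in 0. In Ctrl MCM2-2A against Ctrl at T12 the 1 call became 0 under DESeq2, its size factors, TMM from genes only and the replicate block. At T60 of that comparison the 0 calls became 1 (Mnt) under DESeq2, its size factors and all groups in 1 fit. For dPOLE4 in MCM2-2A at T24, 0 became 1 (Myc, -0.58) with all groups in 1 fit. For the difference of the dPOLE4 effect at T60, 0 became 1 (Myc) under DESeq2 (-0.64) and no filter (-0.66). Leaving out 1 library at a time gave 0 to 1 calls for dPOLE4 in WT at T60, for dPOLE4 in MCM2-2A at T60 and 96 h and for Ctrl MCM2-2A against Ctrl at T12, 0 to 2 for Ctrl MCM2-2A against Ctrl at T60 and 0 to 2 for the difference of the RA response between Ctrl MCM2-2A and Ctrl. Over 198 such fits, 18 changed a count by more than 1.5 times, and the cause was not tested. Mxd3, with 37 to 318 counts a library, is the member whose depth limits it most.

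With the replicate block, the count of members called changed by more than 1.5 times in 1 of the 27 comparisons, Ctrl MCM2-2A against Ctrl at T12 (1 to 0). In the RA response of Ctrl at T60 it went from 6 to 5 (Max, -0.58). The numbers did not pair the libraries in either. In the paired comparisons the block changed no member's call.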
